A study of Mus musculus with 2 samples.

Results

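The circadian clock genes Clock, Arntl (also named Bmal1), Per1, Per2, Per3, Cry1, Cry2, Nr1d1, Nr1d2 and Dbp were examined in mouse macrophages that were or were not exposed to interleukin-4 (IL-4). The 10 genes were picked by name, and the NCBI gene number of each was matched to its symbol. All 10 were listed in both libraries, out of 15623 genes listed in 1 or both. The study profiled peritoneal macrophages from wild-type C57BL/6 mice by RNA sequencing to find genes regulated by IL-4, a cytokine of type 2 immunity under which macrophages take on the alternative (M2) state. Both cultures came from mice given 4% thioglycollate by intraperitoneal injection 4 to 5 days before lavage, and the cells were enriched by adherence for 4 h. Both were then starved in DMEM with 0.5% FBS. One library was made from cells left nontreated (NT) and the other from cells stimulated with mouse IL-4 for 6 h. The study's methods put the mice in early adulthood. Neither the number of mice behind each library nor the time of day at which either culture was collected was given in the sources used here. A difference in collection time and the stimulation itself cannot be told apart.

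The clock is a feedback loop of transcription factors that runs in most cell types, macrophages included. CLOCK and BMAL1 bind E-box elements as a pair and switch on the Per and Cry genes, whose proteins return to the nucleus and repress that pair. REV-ERB proteins, encoded by Nr1d1 and Nr1d2, and ROR proteins act against each other on Arntl, while DBP and NFIL3 act against each other at D-box elements. The macrophage clock is known for daily rhythms in inflammatory responses.

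Each group held 1 library, so no difference could be set against a spread between replicates, and the intervals given here cover counting error only. Reads were treated as independent, although PCR copies were not marked by molecular identifiers and may repeat 1 molecule. The libraries held 11035641 (NT) and 11250099 (IL-4) expected counts, at which 3 counts correspond to 0.272 and 0.267 CPM (counts relative to the library total). Arg1, an arginine-degrading enzyme induced by IL-4, had 30 expected counts in NT and 7711 in IL-4. All 7 macrophage markers were listed in both libraries, with a summed FPKM (fragments scaled for transcript length and library size) of 14840 in NT and 14737 in IL-4. Most of both sums came from Lyz2 (11289 and 10811) and Cd68 (3240 and 3465), so they say little about the other markers. In NT and IL-4, Csf1r had 144.57 and 270.38 FPKM, Adgre1 68.51 and 91.83, and Itgam 68.03 and 70.48. Mertk had 22.63 and 23.3, and Fcgr1 6.59 and 5.02. Lists of 5 to 7 markers each for B cells, T cells, neutrophils, eosinophils and mast cells, mesothelial cells and fibroblasts, and adipocytes summed to between 0 and 33.9 FPKM in NT, and to between 1.07 and 28.8 in IL-4. Of 7 neutrophil markers, 3 were listed in NT and 2 in IL-4, with 120.1 and 104.9 counts in all, mainly Cxcr2 (84.1 and 83.9) and S100a8 (35 and 21), while Ly6g, Mpo, Camp and Ngp were at 0 in both. Of 7 eosinophil and mast cell markers, 4 were listed in each library, with 83 counts in NT and 46 in IL-4. These were mainly from Siglecf (53 and 27), and Epx and Fcer1a were at 0 in both. Of 5 adipocyte markers, Adipoq alone was listed, with 0 counts in NT and 139 in IL-4. The mesothelial and fibroblast list, 7 of 7 listed in both, had 1423 counts in NT and 1148 in IL-4. The part of these cell types in the results below was not tested.

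Of the 10 clock genes, 4 were lower upon IL-4 stimulation and none was higher. The 4 were Per1, Per2, Per3 and Dbp. A gene was called when its IL-4 level differed from its NT level by a log2 ratio of 0.75 or more in either direction, with an exact conditional binomial p-value of at most 0.05 and a Benjamini-Hochberg (BH) adjusted value of at most 0.5, thresholds that the study used. Such a call compares the reads of these libraries, not the conditions. By the same rule 10.4% of the 15593 genes tested were called, 6.28% lower and 4.07% higher. The methods of the study also give a rule of a fold change over 1.5 and an adjusted value of at most 0.05, by which 12.6% of genes were called, and the same 4 clock genes with them. The median log2 ratio was -0.30 over the 10 clock genes and -0.03 over all genes tested. In RNA from whole cultures, fewer cells expressing a gene and less RNA per cell cannot be told apart.

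**Figure D1:**
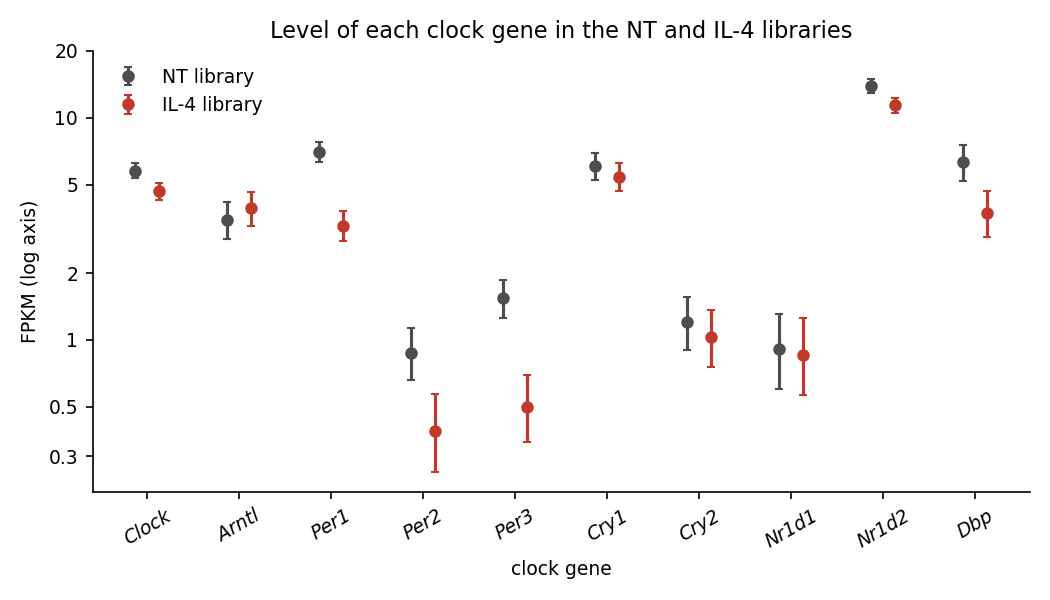
Level of each clock gene in FPKM on a log axis, with 1 point per library (grey, NT; red, IL-4) and bars for the exact Poisson 95% interval of the count. The intervals of the libraries lie apart for Per1, Per2, Per3 and Dbp, and also for Clock and Nr1d2, whose differences are smaller.

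The Per genes encode the period proteins, which together with the cryptochromes form the repressing arm of the loop. Per1 (gene 18626, chromosome 11, 69095108 to 69109965, GRCm38) had 364 expected counts in NT and 173 in IL-4. Its FPKM was 7.02 in NT and 3.27 in IL-4. Per1 was thus 2.14-fold lower after scaling to the library totals, a log2 ratio of -1.10 (95% interval -1.37 to -0.84).

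Per2 (gene 18627, chromosome 1, 91415977 to 91459351) was the least abundant member per length in both libraries. It had 57 counts in NT and 26 in IL-4, or 0.87 and 0.39 FPKM. Its log2 ratio of -1.15 was close to that of Per1, but its interval from -1.89 to -0.47 was wider because it rested on fewer reads. The exact conditional binomial test gave Per2 a BH-adjusted value of 0.00281.

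Per3 (gene 18628, chromosome 4, 150997018 to 151044707) had the lowest ratio of the 10 genes. It had 103 counts in NT and 34 in IL-4, or 1.54 and 0.50 FPKM, and was 3.06-fold lower with a log2 ratio of -1.61 (interval -2.23 to -1.05). Of the 9926 genes with at least 50 reads in 1 or both libraries, 0.584% had a lower ratio than Per3, 2.25% had a lower ratio than Per2 and 2.58% a lower ratio than Per1. Summed over the 3 genes, the Per family had 524 counts in NT and 233 in IL-4. The log2 ratio of the sum was -1.20 (interval -1.43 to -0.97). Per1 made up 74.4% of the summed Per FPKM in NT and 78.6% in IL-4.

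Start regions are shown for the lower Per genes, for Dbp and, for contrast, for Cry1, which was not called. They run from 250 bases before to 50 bases after an annotated start and come from RefSeq for GRCm38.p6. Entries were found for 9 of the 10 members (13 starts), and Per2 had none. Capitals mark matches on either strand to the E-box CACGTG, the cAMP response element TGACGTCA, the D-box TTANGTAA, the core AGGTCA of the element read by ROR and REV-ERB proteins, and the STAT6-type element TTCNNNNGAA. The regions are Per1 at chr11:69098699-69098998 on the plus strand (the upstream of its 2 starts), Per3 at chr4:151044616-151044915 on the minus strand, Dbp at chr7:45704997-45705296 on the plus strand and Cry1 at chr10:85185005-85185304 on the minus strand.
Per1: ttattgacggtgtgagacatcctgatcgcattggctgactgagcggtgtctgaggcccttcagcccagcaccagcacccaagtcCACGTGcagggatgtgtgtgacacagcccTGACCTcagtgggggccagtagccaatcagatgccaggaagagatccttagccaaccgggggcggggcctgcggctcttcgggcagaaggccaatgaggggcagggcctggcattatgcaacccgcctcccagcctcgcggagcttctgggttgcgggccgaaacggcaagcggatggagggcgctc
Per3: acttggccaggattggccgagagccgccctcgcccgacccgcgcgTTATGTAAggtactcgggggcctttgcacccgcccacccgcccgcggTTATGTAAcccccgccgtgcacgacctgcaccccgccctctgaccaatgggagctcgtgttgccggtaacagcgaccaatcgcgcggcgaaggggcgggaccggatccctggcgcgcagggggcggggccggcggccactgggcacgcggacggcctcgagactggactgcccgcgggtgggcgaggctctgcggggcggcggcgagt
Dbp: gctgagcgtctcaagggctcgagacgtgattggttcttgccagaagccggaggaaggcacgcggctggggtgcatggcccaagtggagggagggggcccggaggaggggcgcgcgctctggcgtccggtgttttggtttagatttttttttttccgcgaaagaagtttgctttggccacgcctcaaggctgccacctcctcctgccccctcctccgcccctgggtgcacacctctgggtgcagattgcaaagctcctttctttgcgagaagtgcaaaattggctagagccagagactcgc
Cry1: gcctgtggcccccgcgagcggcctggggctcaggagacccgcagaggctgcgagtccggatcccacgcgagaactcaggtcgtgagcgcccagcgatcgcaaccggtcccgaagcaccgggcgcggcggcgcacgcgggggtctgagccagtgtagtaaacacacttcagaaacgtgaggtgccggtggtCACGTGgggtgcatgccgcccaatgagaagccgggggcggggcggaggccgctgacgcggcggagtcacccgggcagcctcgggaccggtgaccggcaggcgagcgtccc

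The Per1 region held an E-box whose first base lay 166 bases before the start, followed by an AGGTCA core on the opposite strand 137 bases before it. The other Per1 start, at chr11:69099902-69100201, held none of the 5 motifs. The Per3 region held a pair of D-boxes with the same letters, 205 and 158 bases before the start. The Dbp region held none of the 5. The Cry1 region held an E-box 60 bases before the start. Across the 32851 regions of the same length in the table, 7.15% held the E-box, 1.79% the cAMP response element, 2.32% the D-box, 16.3% the AGGTCA core and 6.95% the STAT6-type element. Of the 13 regions of the 9 clock genes with an entry, 2 held the E-box (Per1 and Cry1) and 1 the D-box (Per3). The core was held by 4 of the 13 (1 region each of Clock, Arntl, Per1 and Nr1d2). None of the 13 regions held the cAMP response element or the STAT6-type element. A match is a string of letters in this window and not a measured site.

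Dbp (gene 13170, chromosome 7, 45705100 to 45710203) encodes a PAR bZIP factor that activates genes with D-boxes and is a classic output of CLOCK and BMAL1. It had 116 counts in NT and 70 in IL-4, or 6.29 and 3.72 FPKM. Its log2 ratio of -0.75 lay almost on the threshold, and its interval (-1.21 to -0.32) did not include 0. Dbp was no longer called with TMM scaling (-0.72), median-of-ratios scaling (-0.72) or FPKM with 0.1 added (-0.74). Exons annotated to Dbp share 539 bases with exons of Sphk2 on the opposite strand, and whether counting used strand was not given. Sphk2, a sphingosine kinase, had 1235 counts in NT and 1125 in IL-4 and was not called, with a log2 ratio of -0.16.

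**Figure D2:**
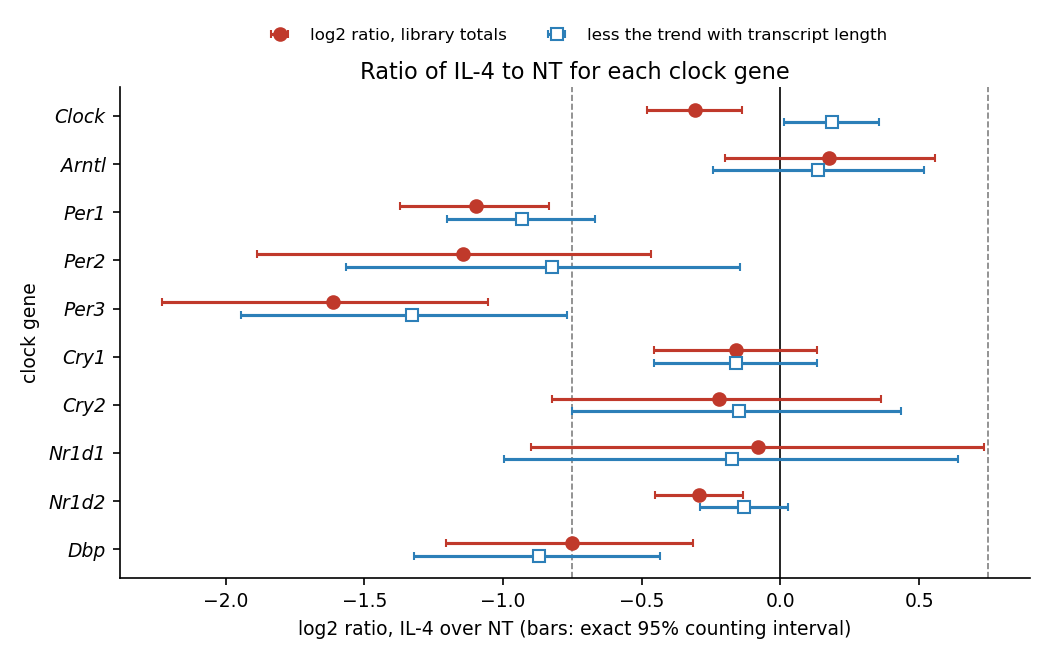
Log2 ratio of IL-4 over NT for each clock gene (red circles, library totals; blue open squares, less the median ratio of genes of similar transcript length), with exact 95% counting intervals as bars and dashed lines at the threshold of 0.75. Per1, Per2, Per3 and Dbp lie beyond the lower threshold by both measures, and Clock crosses 0 when the length trend is subtracted.

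The activators were not called. Clock (gene 12753, chromosome 5, 76209868 to 76305603), which encodes the bHLH-PAS partner of BMAL1, had 632 counts in NT and 520 in IL-4, or 5.78 and 4.67 FPKM. Its log2 ratio was -0.31, and the interval (-0.48 to -0.14) did not include 0. Arntl (gene 11865, chromosome 7, 113178471 to 113314126), which encodes BMAL1, had 111 counts in NT and 128 in IL-4, or 3.46 and 3.91 FPKM. An annotated antisense transcript, Gm45355, shares 33 exon bases with Arntl. Arntl was the 1 member with a ratio over 0 (0.18), and the interval from -0.20 to 0.56 spanned 0. Within this pair the log2 ratio of Clock was 0.49 below that of Arntl by the counts of the pair alone (a difference of -0.49), with an interval from -0.91 to -0.07. Clock has the longest transcripts of the 10 genes (9772 bases in the NT table), beside 2888 for Arntl, and transcript length does not cancel within a pair. Subtracting the median ratio of genes of similar length turned the ratio of Clock to 0.18, beside 0.14 for Arntl. The interval of Clock then ran from 0.01 to 0.35, so the side of 0 on which it lay depended on this subtraction. The difference within the pair was then 0.05, and its interval (-0.37 to 0.47) spanned 0.

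The cryptochromes, which bind the period proteins and block CLOCK and BMAL1, were not called either. Cry1 (gene 12952, chromosome 10, 85131700 to 85185054) had 204 counts in NT and 186 in IL-4, or 6.05 and 5.41 FPKM, a log2 ratio of -0.16 (interval -0.46 to 0.13). Cry2 (gene 12953, chromosome 2, 92403646 to 92434085) had 53.74 counts in NT and 46.98 in IL-4, or 1.20 and 1.03 FPKM, a log2 ratio of -0.22 (interval -0.82 to 0.36). Cry2 was the 1 member without whole counts in both libraries, so a part of its reads was divided with other transcripts. An annotated transcript on the opposite strand, D930015M05Rik, shares 295 exon bases with it. The interval of Cry2 held a fall of 0.75 but not a rise of that size.

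Nr1d2 (gene 353187, chromosome 14, 18204056 to 18239106), which encodes the repressor REV-ERB beta, was the most abundant clock gene per length in both libraries. It had 720 counts in NT and 599 in IL-4, or 13.92 and 11.35 FPKM. Its log2 ratio of -0.29 had an interval from -0.45 to -0.13 and did not reach the threshold. With the length trend subtracted the ratio of Nr1d2 was -0.13, and its interval (-0.29 to 0.03) spanned 0. Nr1d1 (gene 217166, chromosome 11, 98767932 to 98775377), which encodes REV-ERB alpha, had 28 counts in NT and 27 in IL-4, or 0.91 and 0.86 FPKM. Its log2 ratio was -0.08, but the interval from -0.90 to 0.74 was the widest of the 10. Nr1d1 shares 263 exon bases with Thra, a thyroid hormone receptor gene on the opposite strand, which had 93 counts in NT and 104 in IL-4.

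Per length, the order in the NT library ran from Nr1d2 through Per1, Dbp, Cry1, Clock, Arntl, Per3, Cry2 and Nr1d1 to Per2. Nr1d2 stood above the rest, and its FPKM exceeded that of 70.8% of the genes listed in NT. The FPKM intervals of Per1, Dbp, Cry1 and Clock, between 5.78 and 7.02 FPKM, each overlapped that of the next in order. So did those of Per3, Cry2, Nr1d1 and Per2, between 0.87 and 1.54 FPKM. In the IL-4 library the order was Nr1d2, Cry1, Clock, Arntl, Dbp, Per1, Cry2, Nr1d1, Per3 and Per2. Per1 stood in place 2 in NT and in place 6 in IL-4, where its interval overlapped those of Dbp and Arntl. In IL-4 the intervals of Cry1, Clock, Arntl and Dbp also each overlapped that of the next in order. The summed FPKM of the Per genes was 9.43 in NT, beside 9.24 for Clock and Arntl, and 4.16 in IL-4, beside 8.58.

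**Figure D3:**
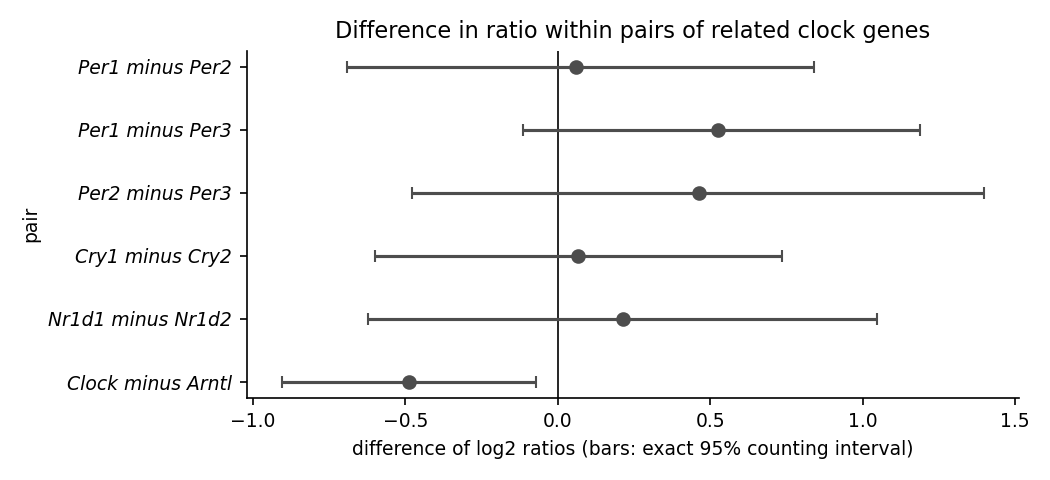
Difference of log2 ratios (first gene minus second) in 6 pairs of related clock genes, with exact 95% counting intervals as bars. The bar of Clock minus Arntl lies below 0 and the other 5 span 0. Transcript length is not taken into account here, and with the length trend subtracted Clock minus Arntl is 0.05 and its interval spans 0.

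Related genes were also compared within 6 pairs, in which the scaling between libraries cancels. The ratios of Per1 and Per2 differed by 0.06 on the log2 scale, with an interval from -0.69 to 0.84. Per3 was the lower in the other Per pairs, by 0.53 below Per1 (interval -0.11 to 1.19) and by 0.46 below Per2 (interval -0.48 to 1.40), and both intervals spanned 0. The differences were 0.07 (interval -0.60 to 0.74) for Cry1 minus Cry2 and 0.21 (interval -0.62 to 1.05) for Nr1d1 minus Nr1d2. All 5 of these intervals spanned 0, with and without the length trend subtracted, which does not show that the genes of a pair moved alike. The FPKM of Cry1 was 5.04 times that of Cry2 in NT and 5.25 times in IL-4, and that of Per1 was 8.07 times that of Per2 in NT and 8.38 times in IL-4.

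Ratios in these libraries varied with transcript length. Among 8463 genes with at least 200 reads, the median log2 ratio was 0.18 in the 847 whose transcripts were shortest and -0.44 in the 847 whose transcripts were longest. The median for genes of similar length was -0.17 for Per1, -0.32 for Per2 and -0.29 for Per3, whose transcripts were between 4648 and 5996 bases long. With it subtracted, the log2 ratio was -0.93 for Per1, -0.82 for Per2, -1.33 for Per3 and -0.87 for Dbp, and all 4 were still called lower. Dbp had the shortest transcript of the 10 (1678 bases), and its ratio moved away from 0. The adjusted intervals ran from -1.20 to -0.67 for Per1, from -1.57 to -0.15 for Per2, from -1.95 to -0.77 for Per3 and from -1.32 to -0.43 for Dbp. The median over the 10 genes was -0.17 after this subtraction, beside -0.04 over all genes.

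**Figure D4:**
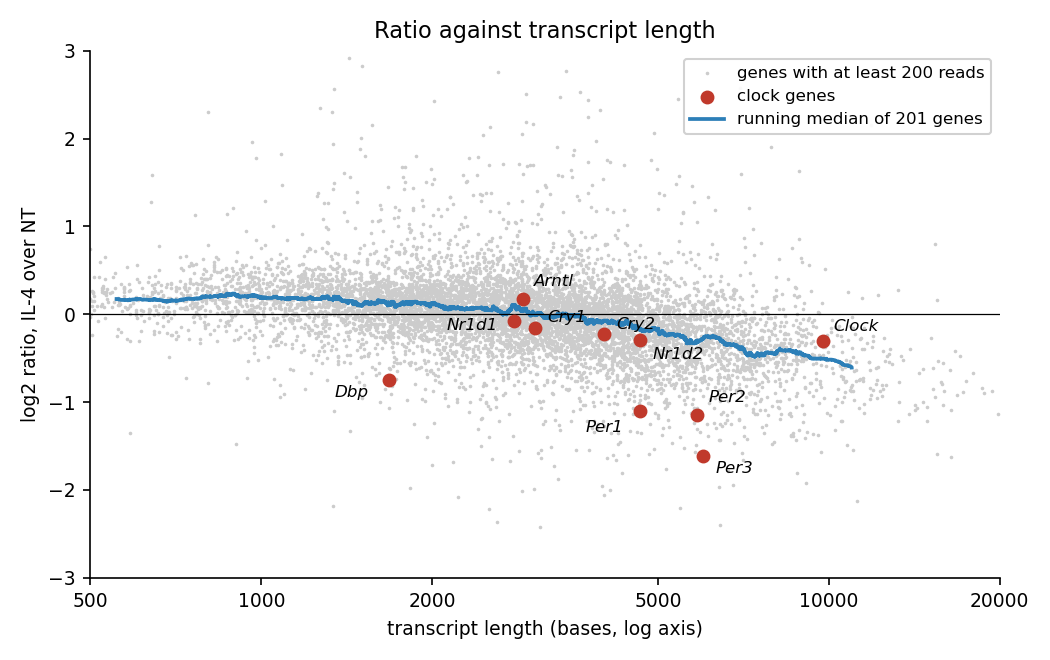
Log2 ratio of IL-4 over NT against transcript length in bases (log axis) for genes with at least 200 reads (grey), with their running median (blue) and the 10 clock genes (red). Per1, Per2, Per3 and Dbp lie below the median at their lengths and the other 6 lie closer to it; 87 grey genes fall outside the axes.

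Beyond the 10 genes, 29 others of the clock pathway were followed as a list. Rorb was listed in neither library. Of the 28 tested, 2 were called higher (Nfil3 and Bhlhe40) and 2 lower (Rora and Por), or 14.3% beside the 10.4% of all genes. By the rule of a fold change over 1.5 and an adjusted value of at most 0.05, 6 were called, with Wee1 added among the higher and Bhlhe41 among the lower, beside 12.6% of all genes. The median log2 ratio of the 26 listed in both libraries was -0.05, beside -0.03 over all genes listed in both.

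Nfil3, the repressor that competes with DBP at D-boxes, had 136 counts in NT and 749 in IL-4, or 6.10 and 32.96 FPKM. It rose 5.39-fold, a log2 ratio of 2.43 (interval 2.17 to 2.71). Tef, a D-box activator related to Dbp, had 644 counts in NT and 482 in IL-4 and was not called (log2 ratio -0.45). The related Hlf had 3 counts in NT and 6 in IL-4, and the interval of its log2 ratio ran from -1.26 to 3.60. In NT the FPKM of Nfil3 was close to that of Dbp (6.10 and 6.29), whereas in IL-4 it was 32.96 beside 3.72.

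The E-box repressors Bhlhe40 and Bhlhe41, which encode DEC1 and DEC2, had ratios of opposite sign. Bhlhe40 had 3506 counts in NT and 7573 in IL-4 (101 and 215 FPKM) and rose 2.12-fold, a log2 ratio of 1.08 (interval 1.03 to 1.14). Bhlhe41 had 3264 counts in NT and 1994 in IL-4, and its log2 ratio of -0.74 (interval -0.82 to -0.66) stopped just short of the threshold. With the length trend subtracted the ratio of Bhlhe41 was -0.46 (interval -0.54 to -0.38), and that of Bhlhe40 was 1.07.

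Rora, which encodes the activator that opposes REV-ERB proteins, had 295.96 counts in NT and 176.15 in IL-4, a log2 ratio of -0.77 (interval -1.06 to -0.50). Its transcripts were long (10869 bases), and with the length trend subtracted its ratio was -0.26 and no longer called. It also lost its call with TMM scaling (-0.74) and median-of-ratios scaling (-0.75, under the threshold before rounding). Por, the P450 oxidoreductase gene and a rhythmic output in liver, had 4379 counts in NT and 2115 in IL-4, a log2 ratio of -1.08, which left 0.474 of the NT level (interval 0.45 to 0.499). Wee1, a cell cycle kinase gene with E-boxes, had 143 counts in NT and 235 in IL-4 and was not called, with a log2 ratio of 0.69.

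None of the 9 genes whose products modify or degrade clock proteins was called, and 8 of the 9 had a ratio under 0. Csnk1d, a casein kinase that phosphorylates period proteins, had 1233 counts in NT and 1302 in IL-4. Its log2 ratio of 0.05 (interval -0.06 to 0.16) was the 1 over 0. The log2 ratio was -0.22 (interval -0.39 to -0.06) for Csnk1e and -0.53 (interval -0.67 to -0.39) for Gsk3b. With the length trend subtracted these were -0.28 (interval -0.44 to -0.12) and -0.12 (interval -0.27 to 0.02). Usp2 had 27 counts in NT and 17 in IL-4, and Fbxl21 had 2 and 0. None of the 3 corepressor genes was called, and Hdac3, the deacetylase recruited by REV-ERB proteins, had a log2 ratio of 0.29 (interval 0.10 to 0.47). With the length trend subtracted the ratio of Hdac3 was 0.17, and its interval (-0.02 to 0.35) spanned 0. Ncor1, which encodes a corepressor that works with HDAC3, had 2004.43 counts in NT and 1450.96 in IL-4, a log2 ratio of -0.49 (interval -0.59 to -0.40). Its transcripts were long, and its ratio was -0.09 with the length trend subtracted. Npas2, which encodes an alternative partner of BMAL1, had 19 counts in NT and 26 in IL-4. Ciart, a repressor of CLOCK and BMAL1, had 10 and 8 counts. The interval of Npas2 (-0.48 to 1.36) held a rise of 0.75 but not a fall of that size, and that of Ciart (-1.89 to 1.14) held both.

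**Figure D5:**
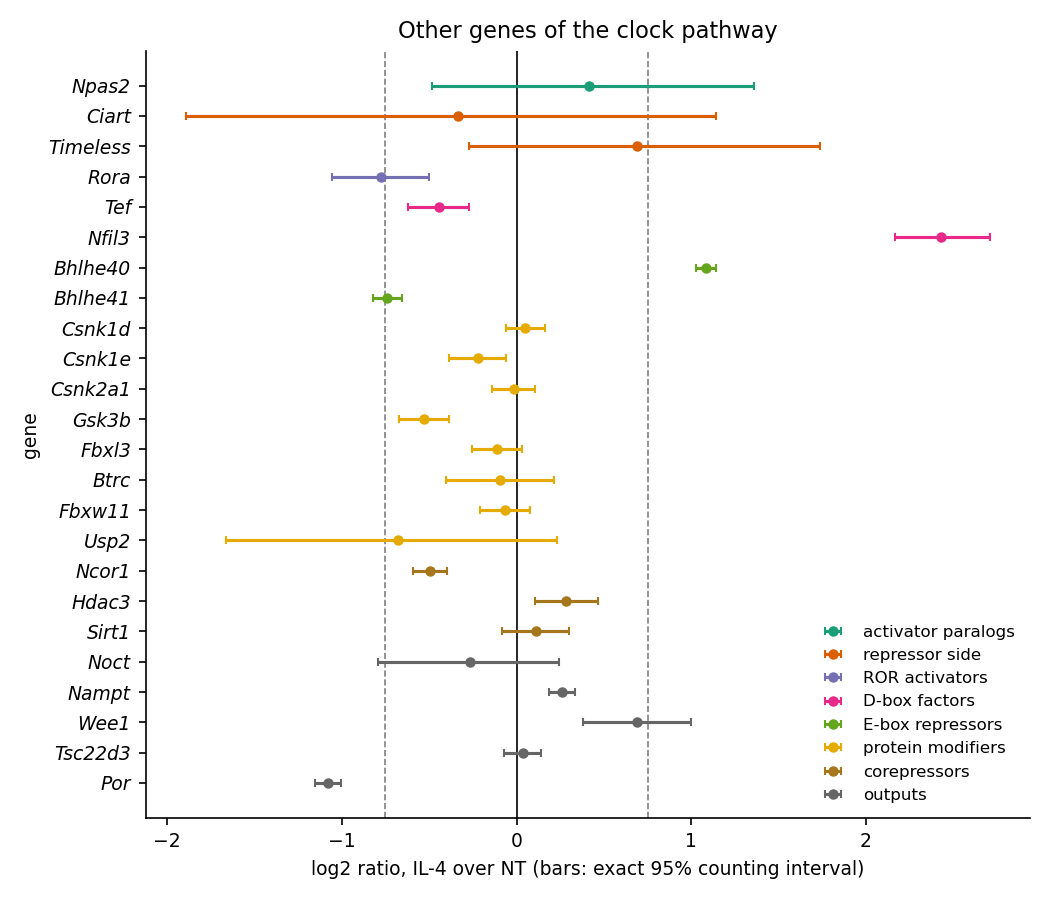
Log2 ratio of IL-4 over NT for the 24 other genes of the clock pathway with at least 10 counts in all, coloured by role, with exact 95% counting intervals as bars and dashed lines at the threshold of 0.75. Nfil3 and Bhlhe40 lie beyond the upper threshold, Por and Rora beyond the lower, and Bhlhe41 just inside it.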

How the data were processed

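RNA from 1 NT and 1 IL-4 culture was sequenced on an Illumina HiSeq at BGI. Per the labels and the study's methods, the authors used Bowtie to map reads to GRCm38/mm10 and RSEM to quantify genes (versions not given in the sources used here). The labels call the cells peritoneal macrophages but list bone marrow as tissue. The deposited expected counts are RSEM estimates not scaled for depth, and the deposited FPKM values are scaled by the authors for length and depth. A gene absent from a table was set to 0. Symbols and coordinates came from RefSeq for GRCm38.p6 (15587 of 15623 matched), and exon overlaps from GENCODE.

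Log2 ratios used counts scaled to library totals with 0.5 count added. Rounded counts of 15593 genes were tested with a two-sided exact conditional binomial test and BH adjustment over all of them; 30 genes that rounded to 0 were left out. Intervals are Clopper-Pearson (ratios), Poisson (FPKM) or conditional odds-ratio (pairs) 95% intervals. The length trend of a gene was taken from genes with 200 or more reads, as the median over the 200 closest to it in length. The members, lists, length trend and rules were chosen with earlier results of these data known. Named were all members, genes overlapping them, and, of the other clock genes, each called gene with at least 50 reads in a library and the most abundant of each role. Tef, Hlf, Bhlhe41, Wee1, Ncor1, Csnk1e, Gsk3b, Usp2, Fbxl21 and Timeless were named after their values were seen. Alternatives were edgeR 4.0.16 (TMM; exact test with an assumed coefficient of variation), DESeq2 1.42.0 size factors, FPKM and other thresholds. The procedure was tested on simulated data that held counting error only and no length trend. The genes changed in it had at least 200 reads in all, more than Per2, Per3 or Dbp had. The simulation therefore does not bear on variation between cultures or on the calls of those 3 genes. Python 3.11.15, scipy 1.17.1 and R 4.3.3 were used.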

Additional observations from a re-analysis of the deposited data

How the results depend on the processing

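No paired analysis was possible because NT and IL-4 have 1 library each, and no replicate could be left out. All 12 alternatives chosen for the members were run, and Per1 and Per3 were called lower in all of these except one. That exception was the exact test of edgeR at a biological coefficient of variation set to 0.4, which called 0 of the 10 clock genes, 0 of the other pathway genes and 73 genes in all. With 0.2 assumed, 2 clock genes (Per1 and Per3) and 813 genes in all were called. FPKM with 1 added, which shrinks the ratios of genes of low FPKM, also called 2 clock genes (Per1 and Per3) and 790 in all. A log2 ratio of at least 1 and a BH limit of 0.05 called 884 genes, beside 1614 at the thresholds reported, and 3 clock genes (without Dbp). Over the 10 clock genes, 107 comparisons with an alternative kept their direction and side of the threshold, 12 lost a call of Per1, Per2, Per3 or Dbp, and 1 reversed, the ratio of Clock at 0.18 with the length trend subtracted. The same subtraction within pairs, an alternative chosen after seeing the data, reversed Clock minus Arntl to 0.048. The intervals of the other 5 pairs spanned 0 under it. The other scalings shifted every log2 ratio by at most 0.037 in size, which was enough to move Dbp, Rora and Bhlhe41 across the threshold. The cause of these changes beyond the settings themselves was not tested. Depth limits Nr1d1, Cry2, Npas2, Ciart and Hlf, whose intervals span both 0 and the threshold. The same holds for others of the pathway list, among them Usp2 (interval -1.66 to 0.23) and Timeless (interval -0.27 to 1.74).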
